A study of Mus musculus with 4 samples.

Results

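Sp110, Sp140, Sp100, A530032D15Rik and C130026I21Rik lie close together on mouse chromosome 1 and belong to the SP100 family of nuclear body genes. They were taken as all non-control probes of the array whose gene name equals one of these 5 symbols, which gave 13 of 39429 probes. The cluster was selected on the rise of its probes in cells that received Rif1 siRNA, so the differences between Rif1 siRNA and control siRNA are given as a description and with no test. Of the 13 probes, 12 passed the filter on low values. The remaining one, A_55_P1958991 of A530032D15Rik, was too dim on all 4 arrays and has no fold change.

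The study asked how gene expression changes when Rif1, a chromatin protein that acts in replication timing and in silencing of repeats and early embryonic genes, is depleted from mouse ES cells. All groups were E14tg2a cells, a single established mouse ES cell line, kept in serum medium with leukemia inhibitory factor. There were 4 groups with 1 array each. Among them were untreated cells, whose title gives no harvest time, and cells given control siRNA and harvested at 72 h. The others were cells given Rif1 siRNA (mRif1#2 together with NC#1, per the methods) and harvested at 48 h or at 72 h. There was no control siRNA array at 48 h, so harvest time and knockdown cannot be told apart in the comparison at 48 h, and both Rif1 siRNA arrays are compared with the same control array.

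Proteins of the SP100 family carry a SAND domain, which binds DNA, and several members also carry a bromodomain and a PHD finger, which read modified histones. Sp100 is a founding constituent of PML nuclear bodies, the spherical nuclear structures built by the Pml protein, and Sp110 and Sp140 are known from immune cells, where Sp140 restrains gene expression in macrophages and Sp110 (also named Ipr1) is linked to resistance to intracellular bacteria. In many cell types, genes of this family are induced by interferon. Mouse chromosome 1 carries, beside Sp110, Sp140 and Sp100, a set of related genes and pseudogenes, to which A530032D15Rik and C130026I21Rik belong.

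The Rif1 probe itself had levels of 5.55 (untreated), 5.42 (control siRNA), 2.15 (Rif1 siRNA, 48 h) and 4.15 (Rif1 siRNA, 72 h), where a level is the processed signal divided by the 75th percentile of its array. Rif1 was thus lowest at 48 h and had returned to 0.765 times the control level at 72 h. All 6 ES cell markers were well above background on every array, and their summed level was between 145 and 167. The summed level of 5 immune markers was 3.18 to 3.85, that of 4 fibroblast markers 3.54 to 4.02 and that of 6 germ layer markers 1.15 to 1.62. Of the immune markers, 3 of 5 were well above background in untreated and control cells and 5 of 5 on the Rif1 siRNA arrays. Ptprc, which marks blood cells, read 0.0052 and 0.0074 in untreated and control cells, where it was not well above background, and 0.0091 and 0.0123 with Rif1 siRNA at 48 h and 72 h. The 6 immune marker probes with a value had log2 differences from control siRNA of -0.39 to -0.11 at 72 h, with a median of -0.24. The share of spots that the software called well above background was 58.8% for untreated cells, 62.8% for control siRNA, and 71.5% and 74.1% for Rif1 siRNA at 48 h and 72 h. The part of this difference in sensitivity in the results below was not tested.

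In the array files, which place probes on build mm9, the member probes fall in 2 groups. The probes of A530032D15Rik and C130026I21Rik span chr1:85084725-85254021, and those of Sp110, Sp140 and Sp100 span chr1:87473511-87606016, with 2219 kb between the groups. In RefSeq on build GRCm38.p6 the 5 genes span 622 kb and the distance from C130026I21Rik to Sp110 is 288 kb. There A530032D15Rik, C130026I21Rik and Sp110 lie on the minus strand and Sp140 and Sp100 on the plus strand. Sp110 and Sp140 overlap by 23.4 kb on opposite strands, and 9 other RefSeq genes lie within the span, 4 of them protein coding and 4 pseudogenes.

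The 60-base probes that carry the results are shown by 30 of their bases, written 5′ to 3′ as the array files give them. The first 6 lines hold the first 30 bases of probes of each gene. In the next, capitals mark the end of a TG repeat, and in the last pair capitals mark a run of the Sp140 probe that a probe of another transcript holds in reverse complement.
Sp110 A_55_P2152566: atggcaaagtgcatgaatactagacagtaa
Sp110 A_55_P2037235: atataaatgaaggtgaacatcgcctatgcc
Sp140 A_55_P2086811: cttgtctcttactctcctgagaacaatcca
A530032D15Rik A_55_P2472735: aaatactaatgtggaaaaggcgtggtgtgc
C130026I21Rik A_55_P2184013: gactctgaatccttatctctggtactgttg
Sp100 A_55_P2108763: tcttgtctaggggtggccttgcccctctaa
Sp110 A_55_P2066792: TGTGTGTGTGTGTGTctgaactttgccttt
Sp140 A_55_P2137121: AGAGTCGTGTACGACATCCTCAGCAATGTA
ENSMUST00000162453 A_55_P2100194: TACATTGCTGAGGATGTCGTACACGACTCT

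Although the genes are related, the member probes read different sequence. Among the 78 pairs of member probes, the highest ungapped identity over at least 30 bases was 54.8%, and no pair shared a word of 16 bases. Of the 13 probes, 11 shared no such word with any other probe of the array. The Sp110 probe A_55_P2066792 holds a TG repeat of 37 of its 60 bases and shared 16-base words with 111 other probes. The Sp140 probe A_55_P2137121 shared a run of 36 bases, in reverse complement, with the probe A_55_P2100194 of ENSMUST00000162453. Whether a probe also binds transcripts of a related gene was not tested, since no transcript sequences were used here.

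Most probes of the cluster were higher in both Rif1 siRNA arrays. Relative to the control siRNA array, 9 of the 13 member probes were over 2-fold higher at 72 h and the same number at 48 h, and none was over 2-fold lower at either time. Of all 27706 probes that passed the filter, 2.83% were higher by this measure and 1.00% lower at 72 h, and 3.17% and 1.19% at 48 h. Since the members were chosen on this rise, nothing is read from their share. The 9 probes belonged to Sp110 (2 of 3 probes), Sp140 (3 of 3), A530032D15Rik (1 of 2) and C130026I21Rik (3 of 3), and neither of the Sp100 probes was among them. Of the 12 member probes with a value, 4 had fold changes that are lower bounds, as explained below. The median log2 difference over these 12 was 2.33 at 72 h and 2.29 at 48 h. Over all probes that passed the filter it was -0.05 at both times. Under a background correction with an added constant (normexp), 6 member probes were over 2-fold higher at 72 h and the member median was 1.03. Counting only probes well above background on both arrays left 5 at 72 h. As the RNA came from whole cultures, more cells carrying a transcript and more RNA per cell cannot be told apart.

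**Figure D1:**
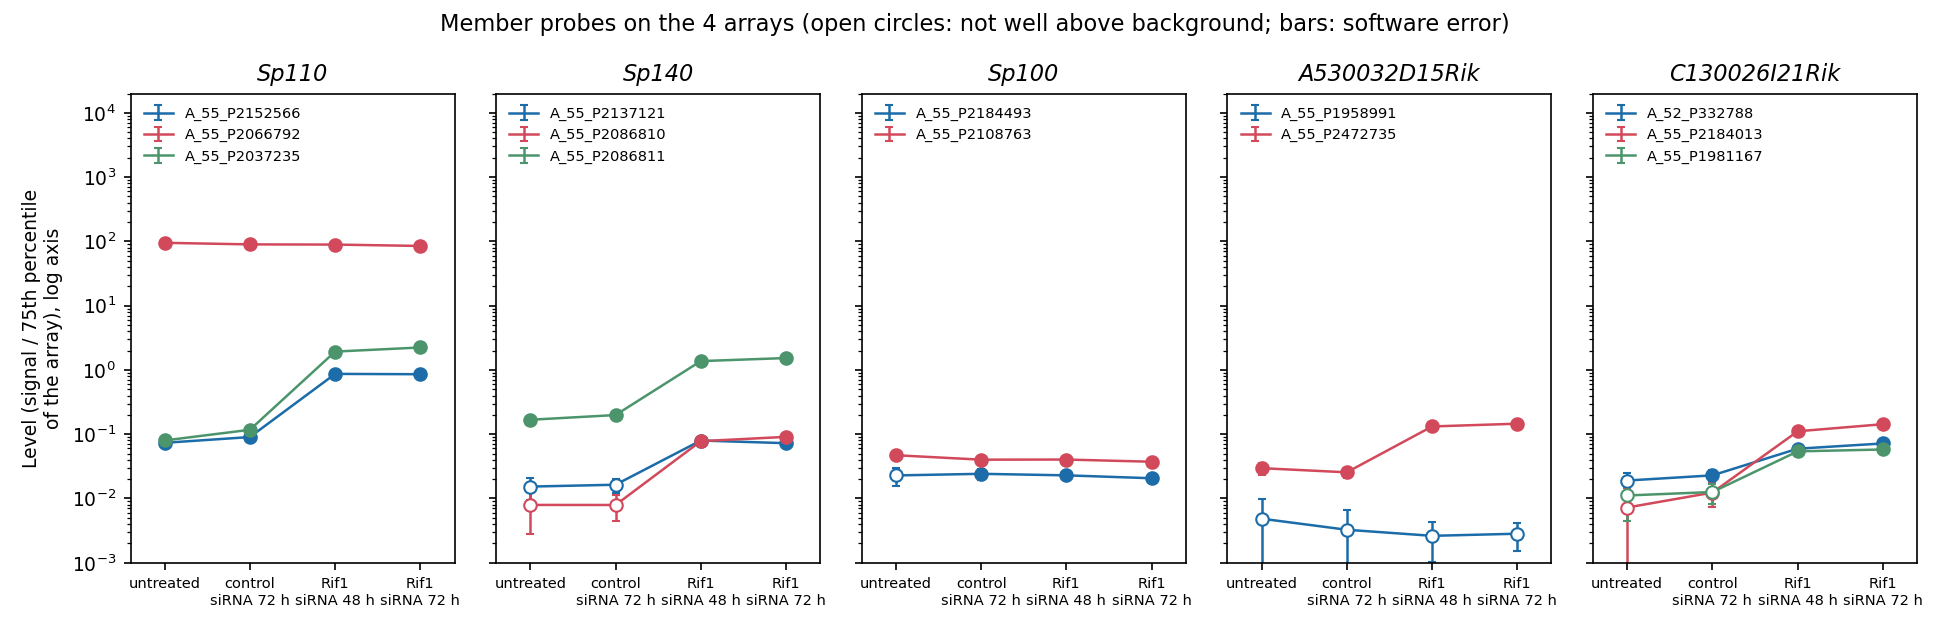
Level of each member probe on the 4 arrays (signal divided by the 75th percentile of the array, log axis), one panel per gene and one line per probe; open circles are not well above background and bars are the error that the scanner software gives for the spot. Of the 13 lines, 9 step up on both Rif1 siRNA arrays, those of Sp100 and of the TG-repeat probe of Sp110 stay nearly level, and that of the A530032D15Rik probe A_55_P1958991 is dim on all 4 arrays.

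Among the 5 genes, Sp110 gave the largest differences measured on both arrays. Its probe A_55_P2037235 (chr1:87492576-87492635, minus strand) read 0.0800 ± 0.0093 (untreated), 0.117 ± 0.0122 (control siRNA), 1.93 ± 0.193 (Rif1 siRNA, 48 h) and 2.24 ± 0.224 (Rif1 siRNA, 72 h), where each error is the one the scanner software gives for that spot and not a spread between samples. Both Rif1 siRNA arrays were far above both others. The level was 16.5 ± 2.37-fold the control at 48 h and 19.1 ± 2.75-fold at 72 h, with the errors combined from those of the spots.

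The probe A_55_P2152566 (chr1:87473511-87473570), read 0.0735 ± 0.0090, 0.0903 ± 0.0097, 0.868 ± 0.0868 and 0.858 ± 0.0858 in the same order. It was 9.61 ± 1.41-fold and 9.50 ± 1.39-fold higher than the control at 48 h and 72 h. Both of these probes, which share no 16-base word with another probe of the array, were higher with Rif1 siRNA, by different folds.

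The third Sp110 probe, A_55_P2066792 (chr1:87473677-87473736), lies beside A_55_P2152566 and did not move with it. Its levels were 95.0 ± 9.50, 89.8 ± 8.98, 89.2 ± 8.92 and 84.9 ± 8.49 in the order above, and its log2 difference from the control at 72 h was -0.08, a value that turned to 0.08 under quantile normalization. This is the probe with the TG repeat. Of the 111 other probes that share a 16-base word with it, 0 were over 2-fold higher at 72 h, with a median log2 difference of -0.05.

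Sp140, whose protein joins the SAND domain with a bromodomain, rose in all its probes. The probe A_55_P2086811 (chr1:87541553-87541612, plus strand) had levels of 0.168 ± 0.0180 in untreated and 0.199 ± 0.0203 in control cells, and 1.37 ± 0.137 and 1.53 ± 0.153 with Rif1 siRNA at 48 h and 72 h. This was 6.90 ± 0.988-fold and 7.70 ± 1.1-fold the control level. The other 2 Sp140 probes were not well above background in untreated or control cells, so their fold changes are lower bounds, set against the lowest signal well above background on the control array or the probe's own signal, whichever was higher.

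The probe A_55_P2086810 (chr1:87541244-87541303) read 0.0079 in untreated and in control cells, 0.0779 at 48 h and 0.0910 at 72 h, which was at least 4.91-fold and at least 5.73-fold higher than the control. The probe A_55_P2137121 (chr1:87507329-87507388), the Sp140 probe with the lowest coordinate, read 0.0153, 0.0164, 0.0797 and 0.0725 in the same order. It was at least 4.87-fold higher at 48 h and at least 4.43-fold higher at 72 h. Under a background correction that adds a constant to every signal (normexp with an offset of 50), the log2 difference of A_55_P2137121 was 0.78 at 72 h, below 2-fold, and that of A_55_P2086810 was 1.28 in place of 2.52.

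A530032D15Rik and C130026I21Rik, the SP100-related genes of the other probe group, also had probes that were higher on both Rif1 siRNA arrays. The A530032D15Rik probe A_55_P2472735 (chr1:85085196-85085255, minus strand) read 0.0296 ± 0.0066 in untreated and 0.0255 ± 0.0047 in control cells, and 0.132 ± 0.0133 and 0.146 ± 0.0147 at 48 h and 72 h. It was 5.17 ± 1.08-fold and 5.71 ± 1.2-fold the control. At 72 h this was a log2 difference of 2.51, or 1.31 under the normexp correction. The second probe of this gene, A_55_P1958991 (chr1:85084725-85084784), read 0.0026 to 0.0049 and was dim on all 4 arrays, although it lies close to the other.

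C130026I21Rik was read by 3 probes. The probe A_55_P2184013 (chr1:85242919-85242978, minus strand) read 0.0072 and 0.0124 in untreated and control cells, where it was not well above background, and 0.111 and 0.143 with Rif1 siRNA. It was at least 7.0-fold higher at 48 h and at least 9.02-fold higher at 72 h, where the log2 bound was 3.17 and the normexp value 1.43. The probe A_55_P1981167 (chr1:85253962-85254021) read 0.0111, 0.0126, 0.0541 and 0.0579 and was at least 3.41-fold and at least 3.65-fold higher.

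The remaining C130026I21Rik probe, A_52_P332788, is placed by the files at chr1:85109017-85109076, which is nearer to the A530032D15Rik probes than to the other C130026I21Rik probes, so which of the genes it reads is uncertain. Its levels were 0.0190 ± 0.0062, 0.0229 ± 0.0045, 0.0595 ± 0.0063 and 0.0719 ± 0.0074. The fold over control was 2.60 ± 0.582 at 48 h and 3.14 ± 0.698 at 72 h. Under the same normexp correction the log2 differences of A_52_P332788 and A_55_P1981167 at 72 h were 0.63 and 0.66, below 2-fold.

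Sp100, the nuclear body gene that gives the family its name, was the only member gene with no probe over 2-fold higher. The probe A_55_P2108763 (chr1:87605957-87606016, plus strand) read 0.0471 ± 0.0069, 0.0402 ± 0.0053, 0.0404 ± 0.0044 and 0.0373 ± 0.0040 in untreated cells, control cells and Rif1 siRNA cells at 48 h and 72 h. The probe A_55_P2184493 (chr1:87559346-87559405) read 0.0228 ± 0.0071, 0.0242 ± 0.0051, 0.0229 ± 0.0031 and 0.0206 ± 0.0027, the first of these not well above background. Both Rif1 siRNA arrays lay within the software error of the control array for each probe. The fold over control at 72 h was 0.929 ± 0.157 and 0.853 ± 0.211, and at 48 h 1.00 ± 0.170 and 0.946 ± 0.237. With 1 array per group these values do not show that Sp100 RNA was the same in all groups.

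**Figure D2:**
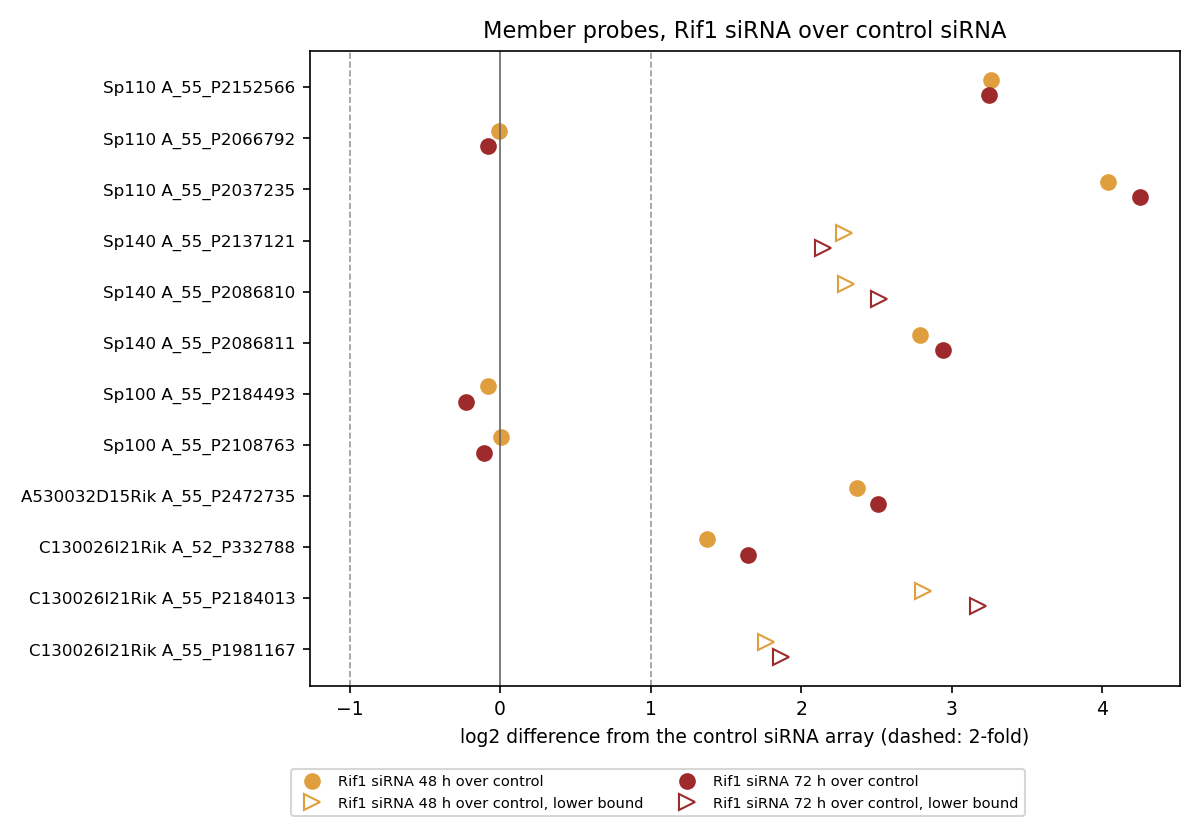
log2 difference from the control siRNA array (x axis) of the 12 member probes that passed the filter, at 48 h (amber) and 72 h (red); circles are measured on both arrays, triangles are lower bounds, and dashed lines mark 2-fold. 9 probes lie to the right of the 2-fold line at both times, and both Sp100 probes and the Sp110 probe A_55_P2066792 lie near 0.

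The comparison of control siRNA with untreated cells holds no Rif1 siRNA array, but it shares the control array with the comparisons on which the members were chosen, so it is not independent of that choice. No member probe was over 2-fold higher or lower in it, where 0.585% of all probes that passed the filter were higher and 1.03% lower. The largest difference was that of the Sp110 probe A_55_P2037235, which was 1.47-fold higher with control siRNA, a log2 difference of 0.55. The median over the 7 member probes with a value was 0.04. The other 6 probes were dim on both arrays, or gave no bound above 1.

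Between 48 h and 72 h of Rif1 siRNA the Rif1 probe differed by 1.93-fold, with the higher level at 72 h. No member probe was over 2-fold higher or lower at 72 h than at 48 h, where 0.491% of all probes were higher and 0.679% lower. The log2 differences ran from -0.15 for the Sp100 probe A_55_P2184493 to 0.37 for the C130026I21Rik probe A_55_P2184013, with a median of 0.12 beside -0.0046 over all probes that passed the filter. These arrays do not include the control, and no test of a trend over time could be made.

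The nearest measured genes on either side of the cluster did not pass 2-fold against the control array. On the lower side Slc16a14, a member of the monocarboxylate transporter family, had levels of 0.0757, 0.0967, 0.120 and 0.121 and was 1.25-fold the control at 72 h. On the upper side the probes of A630001G21Rik were 1.34-fold and 1.19-fold the control at 72 h. Against untreated cells its probe A_52_P497625 was at least 2.13-fold higher at 72 h. Of 89 other probes between 83 and 90 Mb of chromosome 1 (mm9), 60 passed the filter, 6 were over 2-fold higher at 72 h and 1 lower. Of all probes that passed the filter, 2.83% were higher and 1.00% lower. At 48 h the neighbour counts were also 6 and 1. Alpi (at least 2.79-fold) and the Gm5258 probe A_55_P2185410 (at least 2.07-fold) were among those higher at 48 h. The median log2 difference of the neighbour probes at 72 h was 0.02, beside -0.05 over all probes that passed the filter.

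**Figure D3:**
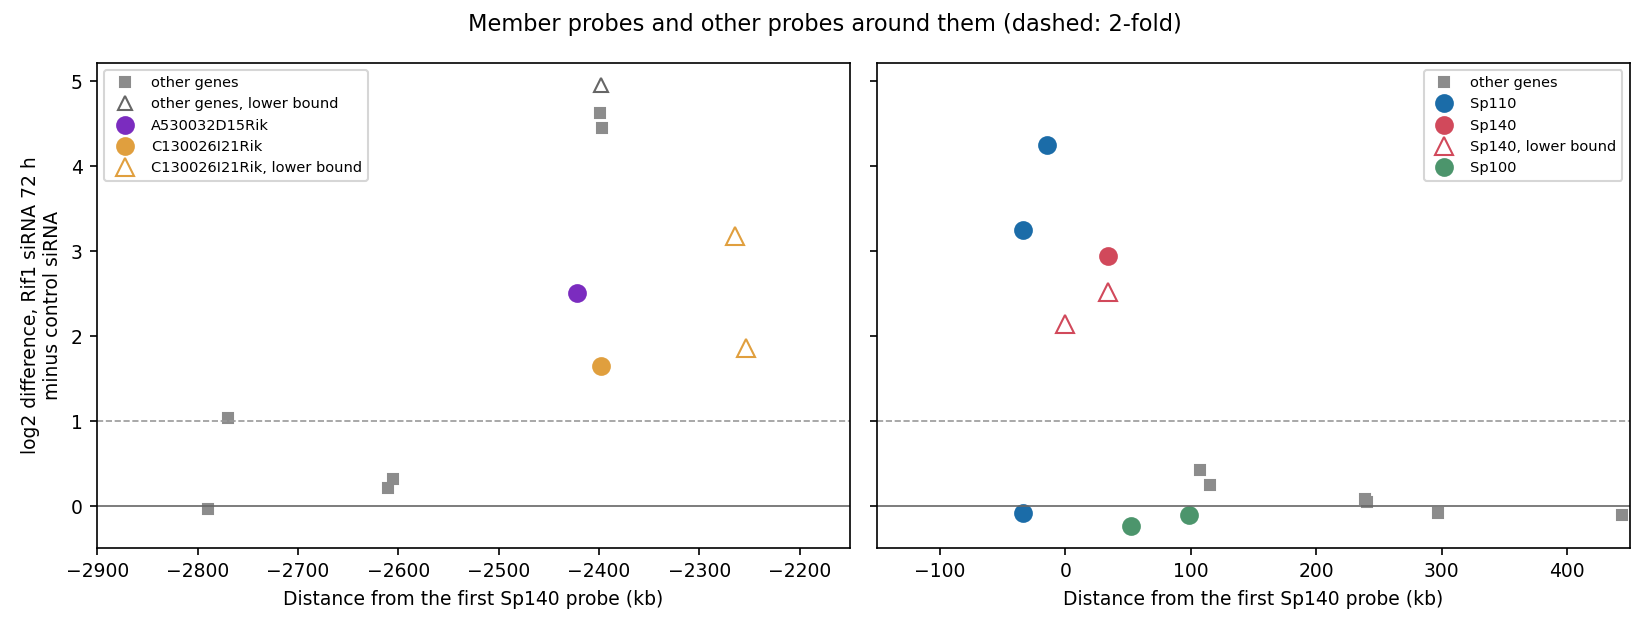
log2 difference between Rif1 siRNA at 72 h and control siRNA (y axis) against distance from the Sp140 probe A_55_P2137121 in kb (x axis), for member probes (coloured) and other probes (grey) around both probe groups; open triangles are lower bounds and the dashed line marks 2-fold. The probes that rise sit among those of the members, and the grey probes on the outer sides stay below the dashed line, except C130021H21Rik at 2.05-fold.

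The 6 neighbour probes that were higher included 3 within the cluster. Of 7 probes of other names placed between the outermost member probes, these 3 were the ones that passed the filter, and all lie on the plus strand around the minus-strand member probe A_52_P332788. ENSMUST00000159087 was read by A_55_P2037236 (chr1:85108826-85108885) at levels of 0.0939, 0.133, 2.86 and 3.29, which was 21.5-fold the control at 48 h and 24.7-fold at 72 h. Its other probe, A_52_P615247 (chr1:85110161-85110220), read 0.143, 0.193, 3.83 and 4.21, which was 19.8-fold and 21.8-fold the control. The probe A_55_P2100194 of ENSMUST00000162453 (chr1:85109086-85109145) read 0.0067, 0.0172, 0.496 and 0.532 and was at least 28.9-fold and at least 31.0-fold higher.

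At 72 h both ENSMUST00000159087 probes had larger fold changes than the 8 member probes measured on both arrays. The other 4 member probes with a value have lower bounds and cannot be ranked. A_55_P2100194 is the probe that carries the reverse complement of 36 bases of the Sp140 probe A_55_P2137121. Over those bases the 2 probes read opposite strands of a shared sequence, and their other bases are not shared in this run. The files place both probes on the plus strand, in different probe groups. At 72 h the Sp140 strand was at least 4.43-fold and the other strand at least 31.0-fold above the control.

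The other neighbours past 2-fold at 72 h were far from the members or dim. C130021H21Rik was 2.05-fold the control at 72 h with levels of 0.0855, 0.0341, 0.0389 and 0.0699, but untreated cells were higher than either. Slc19a3, a thiamine transporter, on its probe A_52_P432881, and Dner, a Notch ligand, were at least 2.25-fold higher each, from signals near the background. The other Slc19a3 probe, A_51_P456826, was at least 1.12-fold higher at 72 h. Ugt1a10, a glucuronosyltransferase, was 0.169 times the control, where the control array was the only one with a level over 0.01.

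RefSeq windows around listed starts were used for all 5 members, on build GRCm38.p6, with 2 starts each for Sp110 and Sp100. For Sp140, C130026I21Rik and Sp110 these starts lie inside the gene spans used above, away from their outer ends. The Sp140 window is at chr1:85600453-85600752, for example, while its span begins at 85587491. Sequence at the outer ends of those spans was not searched or aligned. The windows of Sp140, A530032D15Rik and C130026I21Rik were nearly the same sequence. Sp140 and A530032D15Rik were identical at 270 of 271 aligned bases, Sp140 and C130026I21Rik at 254 of 255, and A530032D15Rik and C130026I21Rik at 279 of 291 with a gap of 12 bases as the only difference. With Sp110, whose windows differ, these are the genes with probes over 2-fold higher. Whether the shared sequence has a part in the rise was not tested. The windows of Sp140, A530032D15Rik and C130026I21Rik are shown by 120 bases each, with capitals at the 1 base that differs among them.
Sp140: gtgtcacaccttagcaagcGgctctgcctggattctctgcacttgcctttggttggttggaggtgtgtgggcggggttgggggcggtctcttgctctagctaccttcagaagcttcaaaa
A530032D15Rik: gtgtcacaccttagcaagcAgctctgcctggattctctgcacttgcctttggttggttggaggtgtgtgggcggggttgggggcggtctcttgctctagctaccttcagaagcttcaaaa
C130026I21Rik: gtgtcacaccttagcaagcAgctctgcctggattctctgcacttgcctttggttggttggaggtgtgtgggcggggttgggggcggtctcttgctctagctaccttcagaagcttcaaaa

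These stretches lie at chr1:85600549-85600668 on the plus strand for Sp140, and at chr1:85109859-85109978 and chr1:85270563-85270682 on the minus strand for A530032D15Rik and C130026I21Rik. The Sp100 windows were of another kind. Neither aligned to those of the other members over more than 25 bases, but Sp100 matched the window of Gm7609, a gene that RefSeq places between A530032D15Rik and C130026I21Rik, at 293 of 298 bases. Gm7609 was read by 1 probe, A_55_P2086279, dim on all 4 arrays (0.0018 to 0.0070).

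The longest run shared by a window of Sp100 and one of Sp110 was 11 bases. It is shown in capitals within 40 bases, at chr1:85649921-85649960 (plus strand) for Sp100 and, from the second listed start, at chr1:85598782-85598821 (minus strand) for Sp110.
Sp100: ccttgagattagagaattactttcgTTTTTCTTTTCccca
Sp110: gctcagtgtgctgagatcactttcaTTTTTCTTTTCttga

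Since genes of this family answer to interferon, 3 motifs were searched for on both strands of the windows. The core of the interferon-stimulated response element (GAAANNGAA), the gamma-activated site (TTCNNNGAA) and the motif of Zscan4 (TGCACAC) had no match in any member's windows. They occur in 8.56%, 8.30% and 4.4% of the 32851 RefSeq windows of this length, which is 300 bases. At such shares most windows hold no match, so nothing is read from the absence. Sequence outside the windows was not searched. A looser form with 1 more base between the repeats and without the last A (GAAANNNGA), chosen after the windows had been seen, matched at 3 places in each Sp100 window, at 1 in the Sp110 window from the second start and in no window of Sp140, A530032D15Rik or C130026I21Rik, and it occurs in 19.5% of all windows. The Sp110 match and 1 of those in Sp100 overlap the run in capitals.

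A list of other nuclear body genes was set beside the cluster. Of 28 genes on a list of PML nuclear body components, regulators of SUMO and histone chaperones, all 28 were on the array with 50 probes, of which 49 passed the filter. At 72 h, 0 were higher and 0 lower by over 2-fold, where 2.83% and 1.00% of all probes that passed the filter were. These counts are near those shares, so nothing is read from them. The median log2 difference was -0.03, beside -0.05 over all probes that passed the filter. Pml, which builds the bodies, read 5.75, 6.63, 5.73 and 5.70 on its brighter probe and was 0.861 times the control at 72 h, and 1.04 times on the other. The genes that differed most were Pias4, a SUMO ligase, at 0.714 times the control, Sumo2 at 0.804 times, and the SUMO protease Senp5 at 1.24 times. That Senp5 probe read only 0.0214 on the control array, and its brighter probe, at 0.402, was 0.987 times the control at 72 h.

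SAND-domain genes elsewhere in the genome were also set beside the cluster. All 11 probes of the 6 genes passed the filter, and 0 of the 10 with a value were over 2-fold higher or lower at 72 h. Of all probes that passed the filter, 2.83% were higher and 1.00% lower, so nothing is read from this count. The median log2 difference of the list was -0.10. Aire, the thymic regulator that is closest in domain structure, read 0.0230, 0.0227, 0.0229 and 0.0232 on one probe, was 1.02 times the control at 72 h, and was well above background on all arrays but that of untreated cells. Ski, Gmeb1 and Deaf1 differed most, at 0.836, 1.19 and 0.857 times the control. The Gmeb1 probe read only 0.0189 on the control array, and the brighter probe of that gene, at 1.47, was 1.05 times the control at 72 h.

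The interferon-stimulated genes were compared in the same way. The 35 genes had 44 probes, of which 31 passed the filter and 26 had a value at 72 h. None was over 2-fold higher and none over 2-fold lower than control at 72 h. Of all probes that passed the filter, 2.83% were higher and 1.00% lower, so nothing is read from this count. The median log2 difference of the list was -0.16, beside -0.05 over all probes that passed the filter. The largest differences were those of Zbp1, a sensor of Z-form nucleic acid, at 0.578 times the control, the chemokine Cxcl10 at 1.54 times and Ifit2 at 1.46 times. With dim signals taken as given rather than as bounds, 1 probe of the list was over 2-fold higher, and against untreated cells 1 was over 2-fold lower, that of Zbp1 at 0.389 times.

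For size, values are given for the 2C genes (genes of the embryo at the stage of zygotic genome activation). Of 28 probes of 18 such genes, 24 were over 2-fold higher at 72 h, and 4 were not. Of all probes that passed the filter, 2.83% were higher. The study itself lists several of these gene families as raised in its array data on Rif1 knockdown, so nothing is read from their share. The median log2 difference over the 28, lower bounds included, was 4.32, and the range was -0.86 to 5.12. Among those measured on both arrays, Tcstv3, Tcstv1 and Usp17la differed most, with log2 differences of 5.12, 4.64 and 4.62, while the other Usp17la probe was at 0.44. In control siRNA against untreated cells, 9 of the 22 probes of this list with a value were over 2-fold higher. The share over all probes that passed the filter was 0.585% in that comparison.

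**Figure D4:**
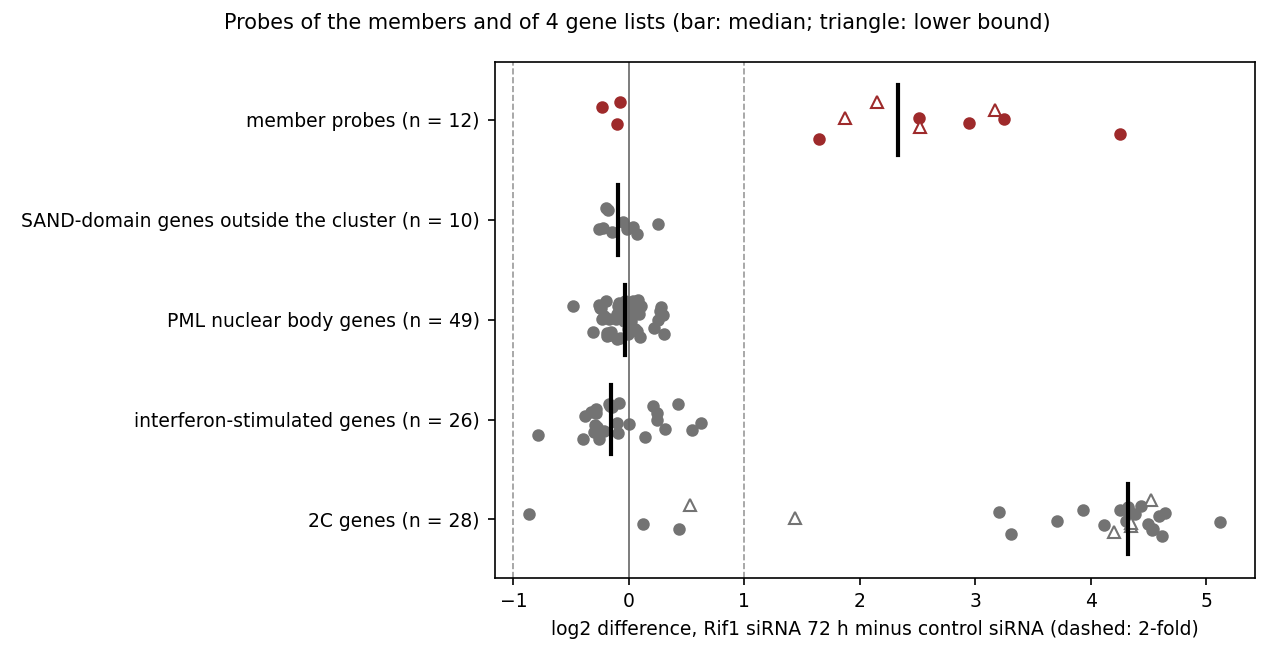
log2 difference between Rif1 siRNA at 72 h and control siRNA (x axis) for each probe of the members and of 4 gene lists (rows); bars are medians, open triangles are lower bounds and dashed lines mark 2-fold. Member probes fall in a group near 0 and a group above 2-fold, the first 3 lists lie within 2-fold, and most 2C probes lie above 3 on the log2 scale.

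The probes of other named genes with the pattern most like each member were found by the root mean square distance between log2 levels, centred over the 4 arrays, among 19974 probes well above background on all of them. For the Sp110 probe A_55_P2037235 these were BC147527 (distance 0.0082), BB237529 (0.0131) and Gm15753 (0.0440). For the Sp140 probe A_55_P2086811 they were Gm11564 (0.0268), Arhgap17 (0.0500) and Gm7969 (0.0707), and for A530032D15Rik they were Gpr182 (0.0514), Arhgef26 (0.0660) and Lonrf3 (0.0718). The files place none of these 9 on chromosome 1, and BC147527 and BB237529 lie on unordered sequence. The likeness rests on 4 arrays that fall in 2 pairs, so many probes come close.

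Kcnk15 and Fgr were among the nearest to the Sp100 probe A_55_P2108763, and Gtf3c5, Thada and Tom1 were nearest to the TG-repeat probe of Sp110. For each of these 5 the levels on the 4 arrays lay within 2-fold of each other. The C130026I21Rik probes were not compared in this way, since none was well above background on all 4 arrays.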

How the data were processed

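RNA of 4 cultures of E14tg2a cells was hybridised to one-colour Agilent arrays, 1 per group, all on one slide. The authors deposited Feature Extraction 11.5.1.1 output, whose processed signal is a background-subtracted, detrended intensity. The authors also deposited these signals as ratios, each over its own array's 75th percentile. Column medians of these ratios were 0.0678, 0.0659, 0.0703 and 0.0696. From the intensities, log2 levels were computed by subtracting each array's log2 75th percentile (43020 non-control spots), leaving out outlier spots (120 to 152 per array). No spot was saturated. Detected spots began at levels of 0.0236, 0.0159, 0.0078 and 0.0054 on the untreated, control, 48 h and 72 h arrays. A probe passed the filter with a signal above the 20th percentile on 1 array and the detected or compromised flag on 2. A value over 2-fold counted as called, lower bounds included, and 1 array per group allows no p-value.

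Members and lists were chosen with earlier results of these data known. Named genes were all members, Rif1, neighbours over 2-fold (those called by a bound were added after their values were seen) and the nearest measured genes, 3 genes per list with the largest difference at 72 h, Pml, Aire and the 3 probes most alike. Some genes that this rule names are not reported here. For Sp110 a second probe was added to the last. Promoter windows were read from RefSeq (GRCm38.p6). Probes were not translated, as no protein sequences were used. Python 3.11.15, pandas 2.3.3, numpy 2.4.6 and, for normexp, limma 3.58.1 were used. The calculation was tested on simulated data. Alternatives were normexp, quantile normalization, a percentile over bright probes, the deposited ratios, outliers kept, dim signals as given, no filter, a stricter filter, a 4-fold threshold and untreated cells as baseline.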

Additional observations from a re-analysis of the deposited data

How the results depend on the processing

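No paired analysis was possible because each group has 1 array. For the same reason no array could be left out, and precision is limited by there being 4 arrays. A value was taken as moved where it changed by more than 0.26 on the log2 scale, the spread of probes between the control and untreated arrays, and a count where it changed by over 1.5 times. The count of 9 member probes over 2-fold higher, at 72 h and at 48 h, was also 9 under quantile normalization, the percentile over bright probes, the deposited ratios, outliers kept, dim signals as given and no filter, and at 72 h with untreated cells as baseline. It was 7 at 4-fold and 6 under normexp. It was 5 at 72 h and 5 at 48 h where only probes well above background on both arrays were counted, which leaves out those with bounds. The median log2 difference of the members fell to 1.03 at 72 h and 1.02 at 48 h under normexp, to 1.87 at 48 h with the stricter filter, and to 1.95 at 72 h against untreated cells. The offset of 50 is added to every signal and so compresses differences of dim probes. Under normexp the median of all probes at 72 h was -0.11, beside -0.05 in the main processing. The neighbour probes over 2-fold higher at 72 h fell from 6 to 3 under normexp, the stricter filter and the 4-fold threshold. Those over 2-fold lower at 72 h rose from 1 to 3 with untreated cells as baseline. No called member value changed direction under any alternative.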
